A study of Mus musculus with 26 samples.

Results

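Heterotrimeric G proteins carry the signal of G protein-coupled receptors from the plasma membrane to enzymes and channels. The genes described here are 10 subunits of these proteins, chosen by gene symbol as Gnai1, Gnai2, Gnao1, Gnas and Gnaq for alpha subunits, Gnb1, Gnb2 and Gnb5 for beta subunits, and Gng3 and Gng7 for gamma subunits. All 10 are listed, with 1 transcript each, among the 8553 gene symbols of both transgenic tables and the 9535 of the knock-out table.

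Ribosome footprinting, which sequences the mRNA fragments that ribosomes protect from nuclease, and RNA-Seq were run on the same striatal lysates of C57BL/6 mice aged 3 months to ask how LRRK2, a kinase linked to Parkinson's disease, alters translation. GS LRRK2 TG mice carried a G2019S LRRK2 transgene, and GS/DA LRRK2 TG mice a G2019S/D1994A LRRK2 transgene whose kinase is inactive. Both transgenes were of high copy number and were driven by CaMKII-tTA, so they reach the forebrain neurons in which this promoter is active, and doxycycline food held them off until weaning. Non-transgenic (non-TG) mice, labelled wild-type, were the control of both, while LRRK2 KO mice were compared with wild-type (WT) mice. The groups are called GS, GS/DA and KO. Each library came from the pooled caudate putamen of 3 mice of both sexes. The non-TG controls were littermates, and the labels do not say whether they carried the driver. The 24 striatal samples are 3 footprinting and 3 RNA-Seq libraries of non-TG control, 2 and 2 each of GS and GS/DA, and 3 and 2 each of WT and KO.

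An alpha subunit binds GDP at rest and is released from the beta-gamma dimer when a receptor exchanges that GDP for GTP. Alpha subunits of the s and olf type raise cAMP through adenylyl cyclase, those of the i and o type lower it or act through beta-gamma, and those of the q type activate phospholipase C beta. In the striatum, the dopamine and adenosine receptors that raise cAMP in spiny projection neurons signal largely through the olf subunit, assembled with Gng7, while others of both kinds act through i and o subunits. Gnb5 pairs with RGS proteins that speed up GTP hydrolysis.

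The deposited values are group means of normalized reads in the coding sequence (CDS), and 10 of 12 columns could be resolved into whole reads of 2 libraries each. Both columns of non-TG control values that stand beside GS could not be resolved and are given as means, and the values do not tell how many libraries they hold. In the order library 1 and library 2, recovered footprinting libraries held 8379822 and 7379722 CDS reads for GS, 13734069 and 8377516 for non-TG control and 17287242 and 7283573 for GS/DA. Those of WT held 5254850 and 3107972 reads and those of KO 5983903 and 2863332. RNA-Seq libraries held between 3131554 reads, in WT, and 14544748, in GS. At high means several pairs of whole reads gave the same mean, so the libraries of Gnao1, Gnas, Gnb1 and Gnb2 were not all separated in the GS/DA table and these 4 genes were not tested there. Recovered libraries carry no replicate number, and the numbers 1 and 2 only tell them apart. A control and a genotype library were given the same number where the difference between libraries recurred in both groups, an assignment read from the values.

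The RNA-Seq libraries of the transgenic tables stood apart within each group. The scaled median absolute deviation of the log2 ratio between the libraries of a group, over transcripts with a mean above 300, was 1.67 in GS, 1.74 in GS/DA and 1.42 in its non-TG control. It was 0.23 to 0.30 for footprinting of these groups and 0.37 to 0.62 over both assays of the knock-out table. In GS this RNA-Seq ratio had a Spearman rho of -0.79 with the GC content of the CDS over 8306 transcripts, which are not independent replicates. Gng7, with a CDS of 54.3% GC, had 626 normalized RNA-Seq reads in library 1 of non-TG control and 4620 in library 2. In the same libraries, Gnai1, with a CDS of 49.6% GC, had 1867 and 1107. Not every subunit followed its GC content, as Gnb5, at 55.1%, had 7413 and 6869 and Gnaq, at 49.8%, had 578 and 545. The matched GS/DA libraries had 479 and 4389 reads of Gng7 and 2485 and 842 of Gnai1, so at Gng7 and Gnai1 the libraries of a group differed by more than the groups did.

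Lrrk2 was examined first as a check of the labels. Its footprints were 400 and 690 normalized reads in the WT libraries and 102 and 150 in the KO libraries. Non-TG control libraries had 1445 and 1224 Lrrk2 footprints and GS/DA libraries 7267 and 4766. GS libraries had 3320 and 7052 against a control mean of 2524. Footprints followed the labels in every recovered library, in GS against a control mean alone. That mean, 2524, stood above the 1335 of non-TG control in the GS/DA table, which was normalized apart. The control libraries behind it were not recovered, so whether they overlapped those of GS cannot be told. Lrrk2 RNA-Seq in the transgenic tables had log2 changes of -0.16 and -0.09. limma did not call Lrrk2 footprinting, with a Benjamini-Hochberg adjusted p of 0.864 in GS/DA at a log2 change of 2.17 and of 1.00 in KO at -2.12. With the libraries matched from their values as a block, the adjusted p from limma was 0.00135 and 3.80e-22. The tissue label was set against markers of spiny projection neurons, of which 18 of 20 symbols were listed (Scn4b and the older symbol Penk1 were not). The most abundant was Ppp1r1b, with a footprinting mean of 42124 in non-TG control of the GS/DA table and 9040 in WT.

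All 10 subunits lay above the median of all transcripts in level in every group and assay, taken as the group mean per kb of CDS. In WT footprinting that median was 110 normalized reads per kb over 9275 transcripts. Gng7 was highest with 4669 per kb (libraries 3604 and 5733), followed by Gnao1 with 3826, Gng3 with 3413, Gnb1 with 3353, Gnb2 with 3287, Gnb5 with 2102, Gnas with 1204, Gnai1 with 765, Gnaq with 640 and Gnai2 with 499. From Gng7 down to Gnb2 each gene overlapped its neighbour in the range of both libraries, as did Gnai1 and Gnaq, whereas Gnb5 and Gnas were set apart from both neighbours and Gnai2 from Gnaq above it. In WT RNA-Seq the order was Gng7 (6971 per kb), Gnb1 (5450), Gng3 (5187), Gnb2 (4994), Gnao1 (4834), Gnb5 (2461), Gnas (1691), Gnai2 (909), Gnai1 (827) and Gnaq (659), and the median of all transcripts was 188. The libraries overlapped between neighbours from Gnb1 to Gnao1 and between Gnai2 and Gnai1.

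**Figure D1:**
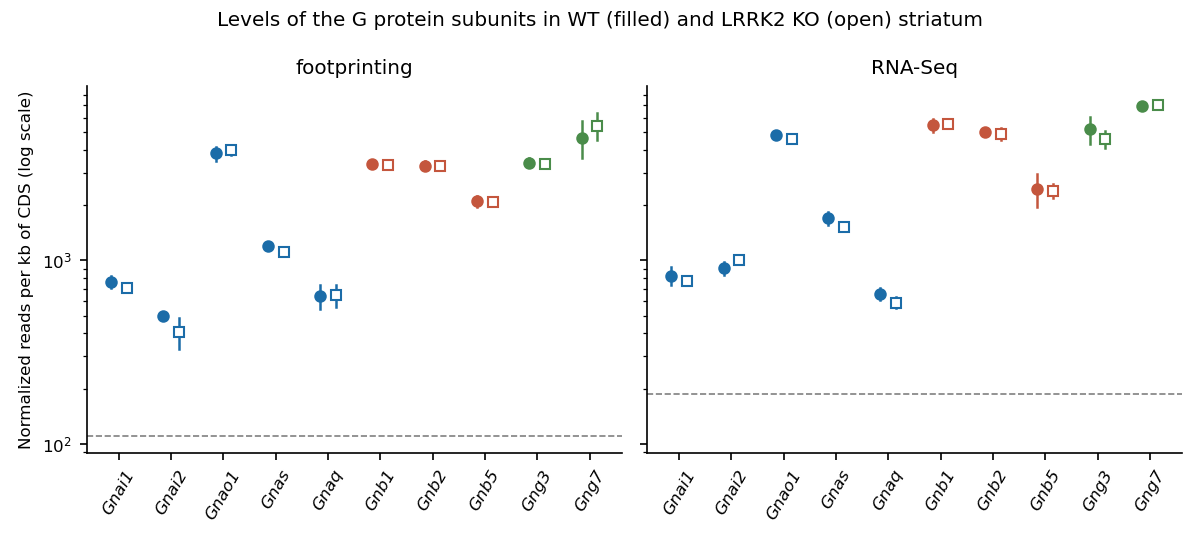
Normalized reads per kb of CDS (log scale) of each subunit in footprinting and RNA-Seq of the knock-out table, with WT as filled circles and KO as open squares. Points are group means, vertical lines span both recovered libraries, the dashed line is the WT median of all transcripts, and colours separate alpha (blue), beta (red) and gamma (green) subunits; every subunit lies above the median, with Gng7 at 4669 and Gnai2 at 499 per kb as the extremes of WT footprinting.

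The place of Gnas depends on its length. The union of its CDS spans 4588 bases because the locus also encodes the extra-large and neuroendocrine forms, whereas the CDS of the stimulatory alpha subunit alone has 1185 bases. Over the latter, a length chosen after the values were seen, WT footprinting of Gnas came to 4660 per kb, second by mean to Gng7 at 4669. This value counts all reads of the union for the stimulatory form. It lies between the Gng7 libraries, 3604 and 5733, so the order of Gnas and Gng7 is not settled. In non-TG control of the GS/DA table, footprinting again had Gng7 highest, at 27929 per kb (libraries 26129 and 29729), followed by Gnao1 at 11994, Gnb2 at 11885 and Gnb1 at 10614, while Gnaq was lowest at 1785 (libraries 1736 and 1834). The tables were normalized separately, so these levels are not on the scale of the WT values.

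Before any change, the subunits differed in translational efficiency (TE), the log2 ratio of the footprinting mean to the RNA-Seq mean. In non-TG control of the GS table the median log2 TE of the subunits was 0.40, against -0.17 over 8576 transcripts. It was 0.65 against 0.04 in non-TG control of the GS/DA table, and -0.53 against -0.64 in WT. Gnaq, the alpha subunit that activates phospholipase C beta, had the highest log2 TE of the 10 by group means in each comparison's control. Its values were 1.54, 1.78 and -0.04, above 98.8%, 98.9% and 85.7% of transcripts. Gnai2, one of the inhibitory alpha subunits, had the lowest by group means in each, at -0.66, -0.23 and -0.87. The controls of GS and GS/DA are both non-TG, so these ranks do not come from 3 separate groups. These ranks turn with the library. In the GS/DA table, RNA-Seq library 1 of non-TG control had 426 reads of Gng3 against footprints of 2559 and 1821. It had 626 reads of Gng7 against footprints of 6154 and 5409, and both genes had a higher ratio than Gnaq. The 1755 RNA-Seq reads of Gnai2 in that library were fewer than the Gnai2 footprints, 2299 and 2139. In WT, Gnb5 and Gnai1 had a higher ratio than Gnaq between the libraries numbered 1. Gng7, Gng3 and, by little, Gnb2 had a lower ratio than Gnai2 between those numbered 2, although numbers are not matched between assays.

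The deposited folding energy of the 5′UTR, the lowest over the isoforms of a gene, had a median of -148 kcal/mol over the subunits and -91.2 over all transcripts of the transgenic tables, where lower means a more stable fold. Gnas had the lowest value, -1023 kcal/mol, and only 0.268% of transcripts were lower. Gnaq followed with -312 and Gnao1 with -212. Gnb5 stood at the other end with -5.80 kcal/mol, and 96.7% of transcripts were lower.

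None of the subunits passed limma in GS/DA or KO, the comparisons that were tested, with Benjamini-Hochberg adjustment over all transcripts and a threshold of 0.05 on the adjusted p. For GS/DA against non-TG control, 0 of 6 subunits were called in footprinting, as were 0 of 8353 transcripts (0%), with 153 at an unadjusted p below the same threshold. In RNA-Seq and in TE, the interaction of genotype and assay, limma called 0 of 6 subunits beside 0% of transcripts in each, with 0 at an unadjusted p below it. For KO against WT, limma called 0 of 10 subunits in footprinting, RNA-Seq and TE, beside 0%, 0% and 0% of 9531 transcripts, with 16, 7 and 4 at an unadjusted p below the threshold. With the matched libraries as a block, limma called 26 transcripts (0.311%) in GS/DA footprinting, 15 (0.157%) in KO footprinting and 11 (0.115%) in KO RNA-Seq. The blocked fit called 0% in GS/DA RNA-Seq and in TE of both comparisons, and none of the calls was a subunit. In KO it gave all 10 subunits 1 common SE, 0.19 in footprinting and 0.22 in RNA-Seq, so its errors are not those of single genes. The fit without a block did not call Lrrk2 either, so the counts of 0 from that fit do not show that the subunits were alike between groups. No test was made for GS, as the control libraries of its own table were not recovered, and its values are a description.

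Groups were also compared by whether their libraries overlapped. In GS footprinting, both libraries lay above the control mean for 1 of 10 subunits, Gnai2, against 19.6% of transcripts, and below it for 2, Gnb2 and Gnb5, against 20.8%. In its RNA-Seq this held for 0 subunits above, against 5.48% of transcripts, and 0 below, against 8.27%. In GS/DA footprinting, both libraries lay above both control libraries for 1 of 6 subunits, Gnai2, against 12% of transcripts, and below both for 2, Gnb5 and Gng7, against 12.2%. In its RNA-Seq, 0 of 9 were above, against 1.78%, and 1, Gnb5, below, against 1.58%. In KO footprinting 0 of 10 were above, against 6.21%, and 1, Gnai2, below, against 6.4%, while in RNA-Seq 0 were above, against 7.04%, and 0 below, against 7.03%. Both transgenic comparisons use non-TG controls, so their values are given side by side and not as support for each other.

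**Figure D2:**
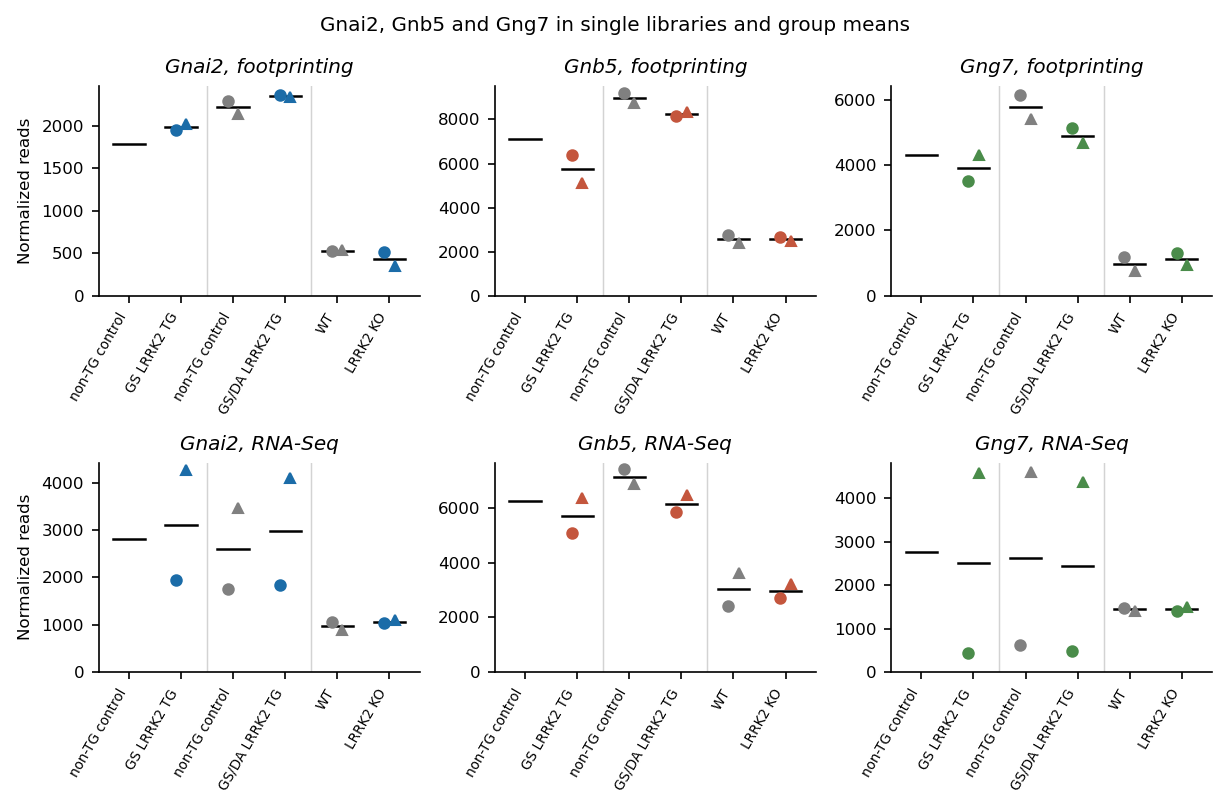
Normalized reads of Gnai2, Gnb5 and Gng7 in footprinting (top) and RNA-Seq (bottom), from 0 on a linear axis. Horizontal bars are group means, circles library 1 and triangles library 2, grey for controls; the first non-TG control has a mean alone, and grey lines separate tables that were normalized apart. Gng7 RNA-Seq spans 626 to 4620 between the non-TG control libraries, while its footprints in GS/DA, 5132 and 4681, lie below both controls.

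Among alpha subunits, Gnai2 had the largest root mean square of its 6 log2 changes (footprinting and RNA-Seq in 3 comparisons), 0.18. It is transcript uc009rml.1 of a gene at chr9:107516461-107537673 on the minus strand (mm9), and encodes an inhibitory subunit found in many cell types. Its footprints were 526 and 537 normalized reads in the WT libraries and 518 and 351 in the KO libraries. Library 1 of KO was thus close to both WT libraries, and library 2, where the value rests on 251 reads, was lower, so the groups did not overlap. From the group means, 531 and 435, the log2 change was -0.29. Gnai2 RNA-Seq had 1049 and 888 reads in WT and 1029 and 1105 in KO, a log2 change of 0.14.

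The TE difference of Gnai2 in KO was -0.43. Its *z* score, the difference less the mean of all transcripts and divided by their SD, was -1.65. It was the only one of 10 subunits at or below the cutoff of -1.5 in KO, as were 6.02% of transcripts, and 0 subunits reached 1.5, against 6.23%. In footprinting, the log2 change from WT to KO was -0.02 with library 1 alone and -0.61 with library 2 alone. limma gave a TE difference of -0.45 ± 0.36 (SE, 2 libraries per group and assay), with a Benjamini-Hochberg adjusted p of 1.00. In the transgenic tables no subunit passed the *z* cutoff. These were 0 up against 8.01% of transcripts and 0 down against 3.91% in GS, and 0 up against 3.65% and 0 down against 7.36% in GS/DA.

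Gnai2 footprints lay higher in both transgenic groups. GS libraries had 1955 and 2022 normalized reads against a control mean of 1790 (log2 change 0.15). GS/DA libraries had 2372 and 2339 against 2299 and 2139 in non-TG control (log2 change 0.09). In footprinting, oligodendrocyte markers were higher for 9 of 10 in GS, 6 of 10 in GS/DA and 2 of 10 in KO. In the same order, astrocyte markers were higher for 8, 8 and 3 of 9 and microglia markers for 7, 8 and 8 of 8. The part of tissue composition in the Gnai2 values was not tested. The transcripts closest to Gnai2 in the 6 log2 changes, by Euclidean distance over 8535 transcripts, were Lzts2 at 0.0958, Dgcr2 at 0.105 and 3110003A17Rik at 0.147, where the median distance was 0.566.

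Part of the Gnai2 CDS is identical or nearly identical to its relatives over the length of a footprint. Of its stretches of 28 bases, about the length of a footprint, 5.86% matched another protein-coding gene with at most 1 mismatch. Gnaq had the highest such share of the 10, 9.78%, and Gnb5 and Gng7 had 0%. A run shared by Gnai2 and Gnao1 spans bases 151 to 181 of both CDSs (NCBIM37). It is shown in capitals since all its bases are identical between the genes, so that a footprint within it could align to either.
Gnai2 and Gnao1: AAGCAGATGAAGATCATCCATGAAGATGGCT

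Gnai1, a closely related inhibitory subunit (uc008wns.1, chr5:17770953-17866231, minus strand), had footprints of 1675 and 1922 in GS against a control mean of 1765. In the other table it had 2170 and 2183 in non-TG control and 2437 and 2069 in GS/DA, so the groups overlapped. In the knock-out table the WT libraries had 748 and 878 and the KO libraries 723 and 788 (log2 change -0.11), which again overlapped.

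Gnao1 encodes the o type subunit that is abundant in neurons (uc009mvj.1, chr8:96333866-96493288, plus strand). GS libraries had 11086 and 9970 footprints, on either side of a control mean of 10618. KO libraries had 4119 and 4703 and WT libraries 3847 and 4593, which overlapped, and the means of the remaining comparison were 13229 in non-TG control and 13002 in GS/DA. In the order GS, GS/DA and KO the log2 changes were -0.01, -0.03 and 0.06. The root mean square over 6 changes was 0.07, the lowest of the 10 beside that of Gnb2.

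Gnas encodes the stimulatory alpha subunit (uc008oeq.1, chr2:174109821-174172245, plus strand) and lies in an imprinted locus, where exons of Nespas run antisense to its CDS. Whether the counting used strand is not given in the sources used here. Its footprinting mean was 13841 in non-TG control and 16020 in GS/DA, a log2 change of 0.21 that exceeded those of 94.5% of transcripts, but its libraries were not separated there and no error can be given. RNA-Seq of Gnas counted 3522 and 13032 in the libraries of non-TG control and 5164 and 14236 in the GS/DA libraries. It was higher in both matched libraries, by a log2 change of 0.55 and 0.13, although the groups overlapped. In GS, Gnas footprints were 10210 and 13422 around a control mean of 11614. In KO they were 4922 and 5271, against 5792 and 5252 in WT, and the groups overlapped.

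Gnaq (uc008gwt.1, chr19:16207321-16461953, plus strand) had few RNA-Seq reads for its footprints. GS libraries had 1783 and 1519 footprints, on either side of a control mean of 1598. In non-TG control of the GS/DA table, footprints were 1870 and 1975 and RNA-Seq reads 578 and 545. GS/DA had 1955 and 2077 footprints and 882 and 464 RNA-Seq reads, so its TE difference of -0.19, the lowest among the 10 subunits in that comparison, came with RNA-Seq libraries on both sides of the controls. KO footprints, 604 and 788, were close to those of WT, 585 and 793.

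**Figure D3:**
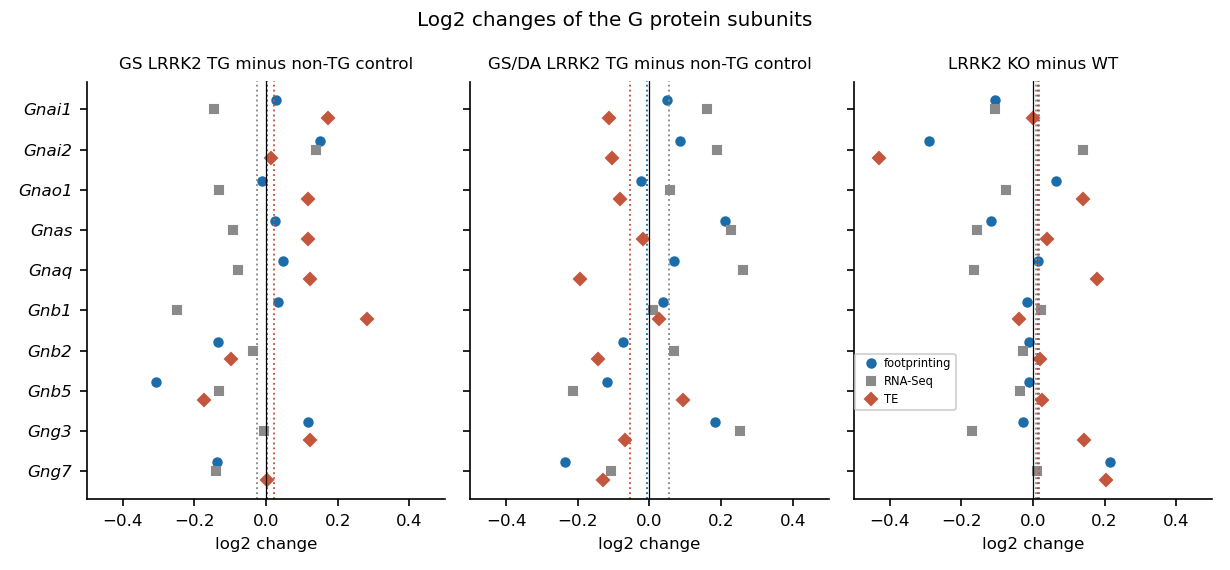
Log2 changes from control to genotype of each subunit, from group means, in footprinting (circles), RNA-Seq (squares) and TE (diamonds), with dotted lines at the median of all transcripts in the same colour. Most values lie within 0.3 of 0; Gnai2 in KO, with a TE difference of -0.43, and Gnb5 in GS, with a footprinting change of -0.31, extend furthest.

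Beta subunits form the propeller that holds the gamma subunit. Gnb5 (uc009qry.1, chr9:75159202-75193678, plus strand) is the divergent member that pairs with RGS proteins of the R7 type in neurons. GS libraries had 6377 and 5100 Gnb5 footprints against a control mean of 7096, and the change of the group mean, -0.31 on the log2 scale, was below that of all but 1.57% of transcripts. In the other transgenic table, non-TG control libraries had 9182 and 8737 footprints and GS/DA libraries 8170 and 8329. Both were below both controls, with a limma log2 change of -0.12 ± 0.11 (SE, 2 libraries per group) and a Benjamini-Hochberg adjusted p of 1.00.

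Gnb5 RNA-Seq had 7413 and 6869 reads in non-TG control and 5849 and 6478 in GS/DA, again with both below both controls (log2 change -0.21). In KO, footprints of 2649 and 2477 overlapped those of WT, 2761 and 2401, with a log2 change of -0.01.

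Gnb1 and Gnb2 are the main beta subunits that join alpha and gamma. Gnb1 (uc008wdp.2, chr4:154865470-154933378, plus strand) had footprinting means of 8802 in non-TG control and 9011 in GS, and RNA-Seq means of 8950 and 7532. Its TE difference of 0.28 was the highest of the 10 subunits in that comparison, with a *z* score of 1.07. The RNA-Seq libraries behind the latter mean had 3772 and 11293 reads, on either side of the control mean. In KO its footprints were 3317 and 3445, against 3299 and 3541 in WT.

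Gnb2 (uc009act.1, chr5:137969355-137974738, minus strand) had 10419 and 9320 footprints in GS, both below a control mean of 10837 (log2 change -0.13). Its RNA-Seq libraries in that group, at 3488 and 20388 reads, differed by more reads than those of any other subunit in GS RNA-Seq. In KO, footprints of 3872 and 3609 lay between those of WT, 3982 and 3552, and the log2 change was -0.01.

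Gamma subunits are small proteins anchored in the membrane by a prenyl group. Gng7 (uc007gfm.1, chr10:80411369-80477690, minus strand) is enriched in the striatum and needed there for the assembly of the olf subunit. Its footprints were 6154 and 5409 in non-TG control and 5132 and 4681 in GS/DA, so both libraries were below both controls. The limma log2 change was -0.23 ± 0.13 (SE, 2 libraries per group), with a Benjamini-Hochberg adjusted p of 1.00, and 0.238 with the matched libraries as a block. With library 1 alone the change was -0.26 and with library 2 alone -0.21. GS footprints of Gng7 were 3509 and 4320 against a control mean of 4303, on either side of it.

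The markers of spiny projection neurons were lower with Gng7 in GS/DA footprinting. Of 18 listed, 17 had a lower mean and 1 a higher one, with a median log2 change of -0.20, against -0.01 over all transcripts. Over the 11 markers whose libraries were separated, the sums were 40366 and 45476 normalized reads in non-TG control and 32783 and 42017 in GS/DA, lower in each matched library although the groups overlapped. The most abundant, Ppp1r1b, had a log2 change of -0.30. Markers of cortical projection neurons were higher at the same time for 4 of 4 listed genes, with sums of 1792 and 1243 in non-TG control and 4335 and 2765 in GS/DA. The most abundant of these, Slc17a7, had means of 833 and 2047, and Slc17a7, Neurod6 and Tbr1 were among the 26 transcripts that limma called with the block, the last 2 being named after their values were seen. Fewer cells of a type and less RNA per cell cannot be told apart in such samples, and the part of tissue composition in the Gng7 value was not tested.

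In GS footprinting, 15 of the 18 spiny neuron markers were lower, with a median log2 change of -0.08 against 0.00 over all transcripts, and their summed libraries were 184190 and 132419 against a control sum of 168762. In KO, where 15 of 18 were higher with a median of 0.10 against 0.02, Gng7 footprints were 1309 and 934, against 1187 and 746 in WT. These groups overlapped, and the log2 change of 0.22 was above that of 88.7% of transcripts. limma gave 0.23 ± 0.34 (SE, 2 libraries per group) with a Benjamini-Hochberg adjusted p of 1.00. The marker sums were 53920 and 44128 in WT and 58316 and 43774 in KO.

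Gng3 (uc008gnh.1, chr19:8911419-8913736, minus strand) encodes a gamma subunit of neurons. GS libraries had 1595 and 2321 footprints, on either side of a control mean of 1806. Its footprints were 2559 and 1821 in non-TG control and 2836 and 2138 in GS/DA, higher in each matched library by 0.15 and 0.23 on the log2 scale, although the groups overlapped. Its change was above that of 92.5% of transcripts. limma gave an adjusted p of 1.00, and 0.321 with the matched libraries as a block, both by the Benjamini-Hochberg method. In KO its footprints, 778 and 729, overlapped those of WT, 814 and 722.

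Both gamma CDSs are short, so that modest reads give a high level per kb. That of Gng7, the subunit with the highest level, has 70 codons and is printed whole from the NCBIM37 annotation. Capitals mark the last 4 codons before the stop codon, which encode the box where the prenyl group is attached. The longest run of identical bases between Gng3 and Gng7 is 11, shorter than a footprint.
Gng7: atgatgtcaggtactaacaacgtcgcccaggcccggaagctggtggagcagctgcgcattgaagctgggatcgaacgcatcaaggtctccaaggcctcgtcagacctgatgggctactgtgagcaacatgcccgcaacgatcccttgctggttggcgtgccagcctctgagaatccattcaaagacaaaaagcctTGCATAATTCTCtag

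As a list, the 10 subunits had a median footprinting change of 0.03 in GS, 0.04 in GS/DA and -0.01 in KO, against 0.00, -0.01 and 0.02 over all transcripts. In RNA-Seq, 9 of 10 were lower in GS, beside 55.7% of transcripts, with a median of -0.11 against -0.02. None of the 10 had both GS libraries of this assay on the same side of the control mean, so these directions turn with the library. In GS/DA 8 of 10 were higher, beside 64.7% of transcripts, with a median of 0.12 against 0.06. In KO 7 were lower, beside 48.7%, with a median of -0.06 against 0.01. Taken relative to the median of all transcripts, RNA-Seq of Gng3 in GS and of Gnb1 in GS/DA had the opposite sign. The TE difference had a median of 0.12 against 0.02 in GS, -0.09 against -0.05 in GS/DA and 0.03 against 0.02 in KO.

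Of the other G protein subunits, 12 of 23 were listed in the transgenic tables and 14 in the knock-out table. limma called none of the 11 tested in GS/DA or the 14 tested in KO. Gnal, the olf subunit, was the most abundant, with footprinting means of 11306 and 12137 in non-TG control and GS, 14818 and 13405 in non-TG control and GS/DA, and 3486 and 3752 in WT and KO. By the *z* score, Gnai3 was up in GS (3.86) and down in GS/DA (-3.19), Gng11 was down in GS/DA (-1.64) and Gng2 was up in KO (2.44). These were 1 of 12 up in GS, beside 8.01% of all transcripts, and 2 of 12 down in GS/DA, beside 7.36%. In KO it was 1 of 14 up, beside 6.23%. Gnai3 footprints differed little, from 488 to 521 and from 609 to 599, and its RNA-Seq means went from 176 to 102 and from 176 to 267. The *z* score carries no error, and the recovered RNA-Seq libraries of these tables stood apart within each group.

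RGS proteins, which speed up GTP hydrolysis by alpha subunits, were listed with their binding partners. Of 13 genes, 10 were lower in footprinting in GS and 9 in GS/DA, beside 48.8% and 52.5% of all transcripts, with medians of -0.05 and -0.12. In KO 8 of 15 were lower, with a median of -0.02. limma called none of the 11 tested in GS/DA or the 15 tested in KO. Rgs4 was the most abundant, with footprinting changes of -0.07, -0.38 and 0.10 in the order GS, GS/DA and KO. It passed the *z* cutoff upwards in KO (1.69), as did Rgs2 in GS (1.58) and Rgs3 in GS/DA (2.14). In the order GS, GS/DA and KO this was 1 of 13, 1 of 13 and 1 of 15 genes. The shares of all transcripts were 8.01%, 3.65% and 6.23%.

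G protein-coupled receptors of the striatum were lower in footprinting for 13 of 16 in GS and 12 of 16 in GS/DA, with medians of -0.10 and -0.14, and higher for 13 of 16 in KO, with a median of 0.16. limma called none of the 14 tested in GS/DA or the 16 tested in KO, with or without the block. The spiny neuron markers, some of which are on this list, moved in the same directions as the receptors, with 15 of 18 lower in GS, 17 of 18 lower in GS/DA and 15 of 18 higher in KO, and the part of tissue composition in the receptor and RGS values was not tested.

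Among effectors, 5 of 9 adenylyl cyclases were listed in the transgenic tables and 6 in the knock-out table. limma called none of the 4 tested in GS/DA or the 6 tested in KO, and none of the listed cyclases passed the *z* cutoff. Their median footprinting changes were -0.05, 0.15 and -0.04 in GS, GS/DA and KO, and 4 of 5 were higher in GS/DA. The most abundant and the 1 lower in GS/DA was Adcy5, the main cyclase of the striatum, which had footprinting changes of -0.15, -0.26 and 0.09. Of phospholipase C beta isoforms, 3 of 4 were listed, with median footprinting changes of 0.01, 0.09 and -0.01. The most abundant was Plcb1 (-0.05, -0.19 and -0.01), and 2 of 3 were higher in GS/DA. By the *z* score Plcb4, 1 of 3, was down in GS/DA (-1.65), beside 7.36% of all transcripts. Of 4 G protein-gated potassium channels, Kcnj3 alone was listed in the transgenic tables, with footprinting means of 191 and 197 in non-TG control and GS and of 200 and 298 in non-TG control and GS/DA. Its log2 changes in GS/DA were 0.58 in footprinting and 0.66 in RNA-Seq. The cortical projection neuron markers were higher there too, for 4 of 4 in each assay, and in KO RNA-Seq they were lower for 9 of 9. The part of tissue composition in the channel values was not tested. In KO, Kcnj3 (2.93) and Kcnj6 (2.54) were TE up by the *z* score, with footprinting changes of 0.21 and -0.32 and RNA-Seq changes of -0.61 and -1.03. These were 2 of 2 listed, beside 6.23% of all transcripts. Both rest on few reads and carry no error. Kcnj6 means in WT and KO were 74 and 59 in footprinting and 77 and 38 in RNA-Seq. Those of Kcnj3 were 115 and 133 in footprinting and 161 and 105 in RNA-Seq.

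Chaperones and regulators of G proteins were listed for 12 of 16 symbols. Their median footprinting changes were -0.05, -0.02 and -0.06 in the order above, and limma called none of the 12 tested in each of GS/DA and KO. Gprin3 was the most abundant (-0.21, -0.39 and 0.02). Grk5, a receptor kinase, was TE up in GS (2.98), 1 of 12 beside 8.01% of all transcripts.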

How the data were processed

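The authors aligned reads to mm9 with TopHat2 2.0.11 and Bowtie2 2.2.2 allowing 1 mismatch, counted CDS reads over the union of isoforms, discarded transcripts under 128 reads and normalized with DESeq 1.20. The authors' group means, a signal in normalized reads, carry no error. The deposited folding energy is a score in kcal/mol. The deposited TE, TE difference and *z* columns were not used, and TE was recomputed with a pseudocount of 0. No file holds values of single libraries, and those given here were solved, for 10 of 12 columns, as whole reads of 2 libraries per mean by arithmetic tested on simulated data. limma 3.58.1 in R 4.3.3 was fitted to log2 (normalized reads + 10), for each assay and, with an interaction, for TE, with Benjamini-Hochberg adjustment over all transcripts resolved in both assays and groups. Fold changes from limma are on that scale, and others are ratios of group means. The spread between libraries is a scaled median absolute deviation because a few outlying transcripts widened the SD. Coordinates, CDS lengths and sequences come from the NCBIM37 (mm9) assembly and its annotation. The members, the lists of pathway genes and the markers were chosen with earlier results of these data known. Genes were named by rule, though not all that it selects are given: every subunit, of each pathway list the gene with the highest footprinting mean and those called or past the *z* cutoff, the highest marker of each list, and the 3 transcripts most like the subunit of largest change. Alternatives were other pseudocounts, filters, *z* cutoffs and centrings, the matched libraries as a block and leaving out each library. The striatal footprinting means of WT and LRRK2 KO resolved into 2 libraries each of 3, and the columns do not tell which. The ventral midbrain libraries were not analysed here.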

Additional observations from a re-analysis of the deposited data

How the results depend on the processing

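No paired analysis was possible because the deposited columns are group means that do not tell which replicate gave which value; the block used here joins libraries matched from their values, not by replicate. The limma counts, 0 in each of the 6 fits, became 26 in GS/DA footprinting and 15 and 11 in KO footprinting and RNA-Seq with the matched libraries as a block. Leaving out 1 library, with the lone one assumed to vary like the rest, gave 2 to 26 in GS/DA footprinting (26 and 13 without control library 1 or 2, and 2 and 12 without GS/DA library 1 or 2) and 0 in the other 5. The other limma settings gave 0. The *z* cutoff was passed by 1022, 944 and 1172 transcripts in GS, GS/DA and KO. A cutoff of 1 gave 2443, 2125 and 2784 and a cutoff of 2 gave 406, 447 and 485, by construction. Means of at least 4 times 128 gave 440, 449 and 222, and at least 2 times 128 gave 407 in KO, with fewer transcripts kept. The median and scaled MAD gave 1559 in GS/DA, and the cause was not tested. Gnai2 in KO passed the cutoff under 5 of 6 alternatives that kept it, with *z* from -2.29 to -1.65, and not at a cutoff of 2. The cutoff of 1 is among these 5 and is passed by construction. At a cutoff of 1, Gnb1 and Gnb5 passed in GS. Of 90 changes of subunits, taking them relative to the median change turned the sign of 6, and a pseudocount of 10 turned 0; of 70 values from 1 library per group, 18 had the opposite sign. Without dividing by length 2 to 5 of 10 subunits kept their rank in level, and with Gnas over its stimulatory CDS 4 to 6 did. Gnai2 in KO rests on 251 footprint reads in library 2, and the part of depth was not tested.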

Other observations

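Markers of other cell types were measured beside the subunits. In the footprinting of GS, oligodendrocyte markers were higher for 9 of 10 listed, with summed libraries of 68545 and 60984 against a control sum of 58223. Astrocyte markers were higher for 8 of 9 (Aldoc 0.04) and microglia markers for 7 of 8 (Csf1r 0.15), but their summed libraries lay on either side of the control sum, at 23205 and 19670 against 20604 for astrocytes and 2855 and 3830 against 3143 for microglia. In GS/DA, 6 of 10 oligodendrocyte, 8 of 9 astrocyte and 8 of 8 microglia markers were higher in footprinting, and the respective median log2 changes were 0.05, 0.08 and 0.08. In KO, 2 of 10, 3 of 9 and 8 of 8 were higher, with medians of -0.07, -0.12 and 0.06. The summed microglia footprints were 938 and 193 in KO against 820 and 195 in WT, so the groups overlapped. Cortical projection neuron markers had a lower mean in GS for 3 of 4 (Slc17a7 -0.24), but the summed libraries were 575 and 2483 against a control sum of 1757, so the direction turns with the library. In RNA-Seq of GS 4 of 4 were lower, and both library sums, 1550 and 1161, lay below the control sum of 2159. In KO footprinting the mean was lower for 5 of 9 (Slc17a7 -0.25), with sums of 2763 and 2528 against 3461 and 2266 in WT, which overlapped. RNA-Seq was lower for 9 of 9 in KO, with sums of 2753 and 4883 against 3372 and 5876. The endothelial markers came down to Slco1c1, at -0.10, -0.23 and 0.13.

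Choroid plexus markers, of which Ttr and Clic6 alone were listed among 7, varied between libraries of 1 group. In GS their summed footprints were 682 and 1239 against a control sum of 4239, a log2 change of -2.14, and that of Ttr alone was -2.45. In the other transgenic table the sums were 1489 and 17613 in the non-TG control libraries and 5525 and 1440 in the GS/DA libraries. Of the dopamine neuron markers, Th, Slc6a3, Slc18a2 and Pitx3 were not listed, and Aldh1a1, the more abundant of the others, had footprinting changes of 0.15, 0.04 and 0.03 in the order GS, GS/DA and KO.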
